A study of Saccharomyces cerevisiae with 12 samples.

Results

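The genes described here are 5 loci that yeast engineers use as selectable markers or as sites for integrating DNA. They are URA3 (YEL021W), LEU2 (YCL018W), HIS3 (YOR202W), TRP1 (YDR007W) and HO (YDL227C). They were chosen by identifier rather than by their measured values, though with earlier results of these data known. The choice was from 6898 features listed in either of the authors' expression tables, and all 5 were listed and tested in both. RNA of Saccharomyces cerevisiae was sequenced at 36 h from 4 strains, with 3 libraries each. An introduced set of genes for making bikaverin, a fungal pigment, was present in YJ-04, whose SAM was low, and in YJ-06, whose SAM was high. The plasmid pRS416 was present in low-SAM YJ-08 and in high-SAM YJ-09 and is a shuttle vector whose selectable marker is URA3. SAM is S-adenosylmethionine, the main methyl donor of the cell. Each SAM level within a pair was a single strain. An effect of SAM therefore cannot be told apart from any other difference between the strains of a pair. Below, a change with high SAM means the high-SAM strain set against the low-SAM strain of its pair. The parent strain, its marker and mating-type alleles, the sites of integration, the number of clones behind a strain and the way SAM was raised are not stated in the labels. Nor is it stated that the 3 replicates of a strain were grown as separate cultures, so the p-values speak only for the spread among these libraries, which could be technical.

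Each of the marker genes encodes 1 enzyme of a synthetic pathway, and a cell that lacks the enzyme grows only when the product of the pathway is supplied or when a plasmid or insertion brings the gene back. URA3 encodes orotidine-5'-phosphate decarboxylase, which makes UMP. LEU2 encodes beta-isopropylmalate dehydrogenase of leucine synthesis. HIS3 encodes imidazoleglycerol-phosphate dehydratase of histidine synthesis. TRP1 encodes phosphoribosylanthranilate isomerase of tryptophan synthesis. HO encodes the endonuclease that cuts the mating-type locus and starts mating-type switching. It is transcribed in haploid mother cells late in G1 under the factor SBF (Swi4 and Swi6), is shut off by the a1-alpha2 repressor in cells of both mating types, and is non-functional in most laboratory strains, which makes its locus a common landing site. RNA levels do not show whether a transcript came from the chromosome, a plasmid or a cassette.

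The factors that act on these genes bind short sites upstream, so the windows that hold them are shown from the RefSeq sequence of genome build R64, the build named in the submitters' processing notes. Each promoter window holds the 250 bases before the start codon and the first 50 bases of the gene, read 5' to 3' on the strand of the gene. Capitals mark a match, searched on both strands. In URA3 it is the Ppr1 site (CGG and CCG with 6 free bases between), for the pyrimidine pathway activator. In LEU2 it is the Leu3 site (CCGG, 2 free bases and CCGG again), for the leucine pathway regulator. In HIS3 it is TGACTC, the core site of Gcn4, the activator of amino acid synthesis genes.
URA3, chrV:115917-116216, plus strand: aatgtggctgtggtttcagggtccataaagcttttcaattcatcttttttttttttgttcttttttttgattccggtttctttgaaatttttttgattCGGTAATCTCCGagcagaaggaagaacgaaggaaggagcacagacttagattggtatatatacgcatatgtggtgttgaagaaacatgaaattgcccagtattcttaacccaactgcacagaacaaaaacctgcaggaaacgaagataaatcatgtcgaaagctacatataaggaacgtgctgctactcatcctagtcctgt
LEU2, chrIII:91074-91373, plus strand: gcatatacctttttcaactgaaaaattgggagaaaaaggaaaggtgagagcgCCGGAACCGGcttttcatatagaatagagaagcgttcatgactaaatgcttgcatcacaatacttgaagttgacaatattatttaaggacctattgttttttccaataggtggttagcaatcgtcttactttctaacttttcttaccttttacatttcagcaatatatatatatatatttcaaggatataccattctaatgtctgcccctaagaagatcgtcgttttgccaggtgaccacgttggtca
HIS3, chrXV:721696-721995, plus strand: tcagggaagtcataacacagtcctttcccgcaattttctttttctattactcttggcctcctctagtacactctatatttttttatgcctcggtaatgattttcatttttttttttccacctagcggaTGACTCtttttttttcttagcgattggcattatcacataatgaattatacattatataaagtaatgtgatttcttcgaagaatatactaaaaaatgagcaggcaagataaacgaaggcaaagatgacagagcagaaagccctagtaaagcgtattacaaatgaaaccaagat

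The Ppr1 pattern was in 1.25% of the 6001 promoter windows of this length, the Leu3 pattern in 0.133% (8 windows, among them those of LEU2, LEU1 and BAT1) and the Gcn4 core in 7.98%. The SBF site CACGAAA was in 4.20%, among them that of HO at -249 to -243. The TRP1 window held none of the 4 patterns, which says only that these letters are not in that window. HO has a long upstream region, 3083 bases to the next gene GCS1, and CACGAAA occurred in it 8 times. Of 5990 genes, 1 had as many matches in the same length upstream, which was HO itself, and the median gene had 0. That length was set by the gap of HO, so the windows of other genes can run into neighbouring genes. The rank is a description only. The stretch of 300 bases with 5 of the 8 matches lies 876 to 577 bases before the start codon and is shown because most copies of the site lie in it.
HO upstream region, chrIV:48608-48907, minus strand: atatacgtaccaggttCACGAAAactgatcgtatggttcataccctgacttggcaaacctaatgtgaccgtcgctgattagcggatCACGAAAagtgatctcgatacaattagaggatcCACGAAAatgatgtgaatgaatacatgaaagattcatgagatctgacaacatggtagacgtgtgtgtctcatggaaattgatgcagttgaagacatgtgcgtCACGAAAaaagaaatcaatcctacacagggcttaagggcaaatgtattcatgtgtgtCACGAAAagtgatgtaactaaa

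The 5 genes kept 1 order of level, URA3 above LEU2 above HIS3 above TRP1 above HO, in nearly every library. Levels are FPKM (fragments per kilobase and per M reads), so that genes of different length can be compared within a library. URA3 was 2.05 to 7.51 times as high as LEU2 over the 12 libraries, and LEU2 was 2.22 to 4.35 times as high as HIS3. HIS3 was above TRP1 in 10 of 12 libraries, and in the pRS416 low-SAM strain their ranges overlapped (lowest and highest ratio 0.951 and 1.07). TRP1 was 3.14 to 39.7 times as high as HO. URA3 was at the 96.4 to 99.3 percentile of the features of its library, whereas HO was at the 16.4 to 33.7 percentile in the bikaverin strains and at the 9.84 to 15.1 percentile in the pRS416 strains. The authors normalized the bikaverin and the pRS416 table separately, so no level was tested between them.

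**Figure D1:**
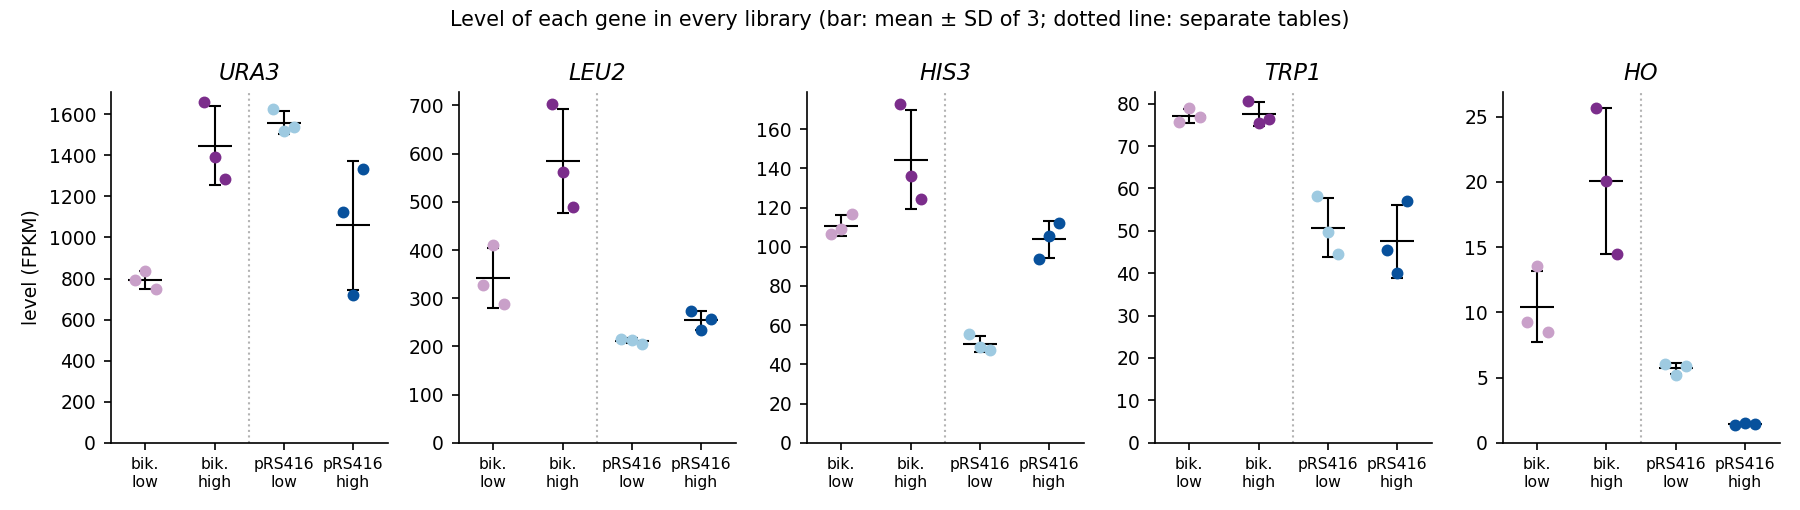
Level in FPKM of each gene in each library (points), with mean ± SD of the 3 libraries of a strain (bars); each panel has its own axis from 0, and the dotted line divides the separately normalized tables. High-SAM and low-SAM points are apart for URA3, LEU2, HIS3 and HO in both tables and overlap for TRP1, and URA3 and HO are higher with high SAM on the left of the line and lower on the right.

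With high SAM, 4 of the 5 genes rose and 0 fell in the bikaverin strains, against 28.8% of all 6459 tested features called higher and 27.9% called lower (56.7% in all). In the pRS416 strains 2 rose (LEU2 and HIS3) and 2 fell (URA3 and HO), against 39.1% called higher and 38.4% called lower of 6342 features (77.5% in all). TRP1 was not past the threshold in either pair. A call means a Benjamini-Hochberg adjusted p below 0.05 over all features, from limma on log2(FPKM + 1). The groups did not overlap for the same 4 genes in each pair, as was so for 65.6% of features in the bikaverin pair and 80.3% in the pRS416 pair, so a call is no rare event in these tables, and the counts of pathway and neighbouring genes given below are descriptions to be set beside the same shares. The median log2 change of the 5 genes was 0.77 and -0.10, beside 0.01 and -0.01 for all features. The change differed between the pairs for URA3, LEU2 and HO (larger in the bikaverin strains) and for HIS3 (larger in the pRS416 strains), where 27.9% of 6410 features were called with the larger value in the bikaverin strains and 29.0% with the larger value in the pRS416 strains (56.9% in all).

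**Figure D2:**
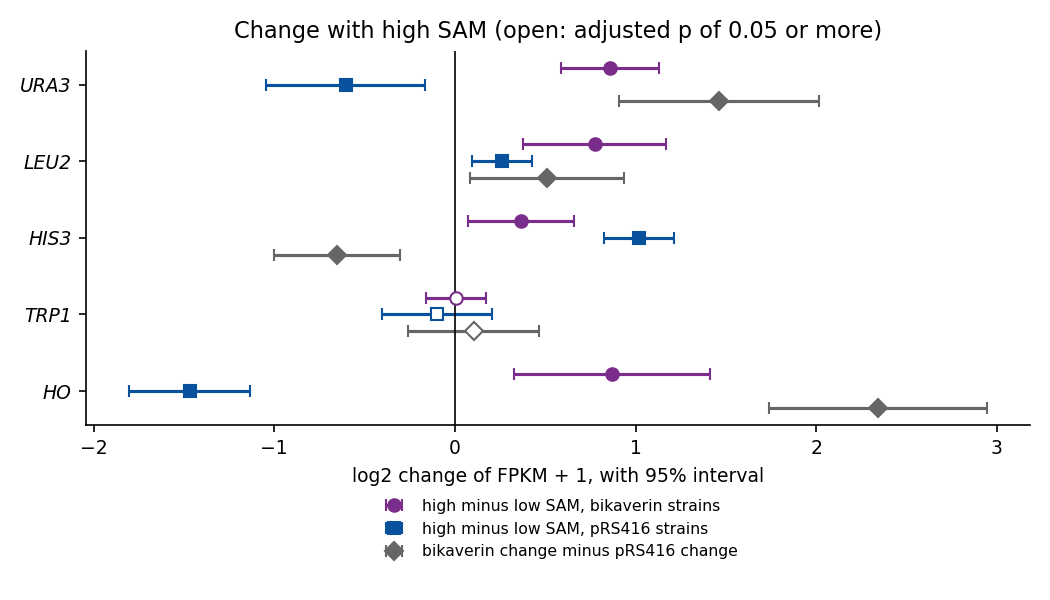
Log2 change of FPKM + 1 from low to high SAM for each gene in the bikaverin strains (circles) and the pRS416 strains (squares), and the difference of these changes (diamonds), each with its 95% interval from limma; open symbols have an adjusted p of 0.05 or more. URA3 and HO lie to the right of 0 in the bikaverin strains and to the left in the pRS416 strains, LEU2 and HIS3 lie to the right in both, and every interval of TRP1 includes 0.

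URA3 (chromosome V, 116167 to 116970, plus strand, 1 exon) rose in the bikaverin strains. Its level was 794.6, 838.7 and 748.3 FPKM in the 3 low-SAM libraries and 1661, 1391 and 1287 FPKM in the high-SAM ones. Every high-SAM library was above every low-SAM library. The mean went from 793.9 ± 45.2 to 1447 ± 193 FPKM (SD, n = 3), 1.82-fold, with a log2 change of 0.86 (SE 0.117, limma adjusted p = 0.00063). These values rest on 10465 to 21221 reads per library.

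In the strains with pRS416, the plasmid that carries URA3, the same gene fell. It was at 1624, 1517 and 1539 FPKM with low SAM and at 1125, 718.1 and 1334 FPKM with high SAM. The groups did not overlap, but the high-SAM libraries were spread widely, with replicate 2 far below the others. The mean went from 1560 ± 56.3 to 1059 ± 313 FPKM, 1.47-fold lower (log2 change -0.60, SE 0.194, limma adjusted p = 0.018). The coefficient of variation in the high-SAM strain was 29.6%, above that of 95.5% of features there, whose median was 8.20%. Without high-SAM replicate 2 the log2 change was -0.35 (adjusted p = 0.0096), and without low-SAM replicate 1 it was -0.57 and no longer called (adjusted p = 0.057). The difference of the change between the pairs was 1.46 on the log2 scale (95% interval 0.91 to 2.01, limma adjusted p = 0.00037). Plasmid copy number and reads from the plasmid were not measured, and their part in these levels was not tested.

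URA3 was the most abundant of 12 pyrimidine genes in each library, ahead of URA10, the minor orotate phosphoribosyltransferase gene, by 1.79, 6.65, 5.15 and 2.40 times in the bikaverin low and high and the pRS416 low and high strains. Of the other 11 pyrimidine genes 6 rose and 1 fell in the bikaverin pair, and 7 rose and 3 fell in the pRS416 pair (medians 0.38 and 0.24). In the bikaverin pair the uracil permease gene FUR4 rose from 26.6 ± 1.44 to 154.2 ± 49.7 FPKM and the CTP synthase gene URA7 from 25.5 ± 4.14 to 76.8 ± 20.1 FPKM. URA10 fell there from 444.4 ± 59.4 to 217.6 ± 31.4 FPKM. In the pRS416 pair PPR1, which encodes the activator of URA3, rose from 9.94 ± 0.451 to 38.6 ± 0.951 FPKM (3.88-fold). URA1, for dihydroorotate dehydrogenase, rose from 76.4 ± 5.35 to 189.8 ± 25.0 FPKM, and FUR1, for uracil phosphoribosyltransferase, from 25.2 ± 1.37 to 56.6 ± 3.92 FPKM. PPR1 and URA1 also rose in the bikaverin pair, from 11.1 ± 0.942 to 17.4 ± 1.15 FPKM and from 115.6 ± 12.4 to 198.4 ± 28.2 FPKM. They thus rose in both pairs, whereas URA3 rose in 1 and fell in the other. URA2 and FUR4 had the same directions as URA3. URA2 rose from 68.8 ± 4.82 to 108.1 ± 9.81 FPKM in the bikaverin pair and fell from 66.3 ± 2.36 to 52.0 ± 5.03 FPKM in the pRS416 pair. FUR4 fell in the pRS416 pair from 44.8 ± 1.94 to 38.2 ± 2.69 FPKM. The Ppr1 pattern was also in the windows of URA1 and URA4.

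LEU2 (chromosome III, 91324 to 92418, plus strand, 1 exon) rose in both pairs. In the bikaverin strains it was at 327.6, 410.0 and 288.3 FPKM with low SAM and at 703.1, 562.6 and 490.3 FPKM with high SAM, with no overlap. The mean went from 341.9 ± 62.1 to 585.3 ± 108 FPKM, 1.71-fold (log2 change 0.77, SE 0.170, limma adjusted p = 0.0060). In the pRS416 strains it was at 216.2, 213.6 and 205.4 FPKM with low SAM and at 272.6, 233.8 and 257.0 FPKM with high SAM. The rise there was smaller, 1.20-fold, but the low-SAM libraries lay close together and the groups did not overlap (log2 change 0.26, SE 0.073, adjusted p = 0.0092). With quantile normalization that call was lost (log2 change 0.10, adjusted p = 0.28). The difference between the pairs was 0.51 (95% interval 0.09 to 0.94, limma adjusted p = 0.041), and it was not called in 9 of 12 fits that each left out 1 library, with a range of 0.37 to 0.65.

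Of the other 7 leucine genes 3 rose and 2 fell in the bikaverin pair, and 5 rose and 2 fell in the pRS416 pair. The directions within the pathway were mixed in both. BAT1, the mitochondrial branched-chain aminotransferase gene, rose from 148.9 ± 17.6 to 542.8 ± 119 FPKM and from 93.5 ± 1.83 to 353.8 ± 55.3 FPKM. BAT2, its cytosolic counterpart, fell from 768.2 ± 71.0 to 101.6 ± 15.6 FPKM and from 324.2 ± 22.4 to 86.2 ± 9.66 FPKM. The gene of the mitochondrial carrier OAC1, which exports isopropylmalate, rose 2.22-fold and 2.26-fold, and LEU3, for the regulator itself, 1.37-fold and 1.38-fold. LEU4, the main isopropylmalate synthase gene, fell from 1012 ± 34.5 to 573.0 ± 161 FPKM and from 658.1 ± 23.1 to 286.1 ± 14.3 FPKM. LEU2 ranked below LEU4 in each low-SAM library, and its mean was 1.02 times that of LEU4 in the bikaverin high-SAM strain. LEU1, the isopropylmalate isomerase gene that also carries the Leu3 pattern, rose in the pRS416 pair (96.3 ± 2.73 to 170.9 ± 15.6 FPKM) and was not past the threshold in the bikaverin pair (183.6 ± 21.4 and 146.9 ± 33.6 FPKM, adjusted p = 0.12).

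HIS3 (chromosome XV, 721946 to 722608, plus strand, 1 exon) rose in both pairs, by more in the pRS416 strains. There it was at 55.3, 49.1 and 47.6 FPKM with low SAM and at 93.8, 105.4 and 112.2 FPKM with high SAM, so that the groups lay far apart. The mean went from 50.6 ± 4.08 to 103.8 ± 9.32 FPKM, 2.05-fold (log2 change 1.02, SE 0.086, limma adjusted p = 4.2e-06). In the bikaverin strains HIS3 was at 106.4, 109.3 and 116.8 FPKM with low SAM and at 172.7, 136.0 and 124.6 FPKM with high SAM. Again no library overlapped, but high-SAM replicate 1 stood above the other two. The change was 1.30-fold (log2 change 0.37, SE 0.125, adjusted p = 0.038). This call was lost without any 1 of the 3 low-SAM libraries (adjusted p = 0.11, 0.096 and 0.058) and without high-SAM replicate 2 (0.068), and without high-SAM replicate 1 the log2 change was 0.23 (adjusted p = 0.047). The change was smaller in the bikaverin than in the pRS416 strains by a log2 difference of -0.65 (95% interval -1.002 to -0.305, limma adjusted p = 0.0039).

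The other genes of histidine synthesis did not move as a block. Of 6 genes 1 rose (HIS5) and 1 fell (HIS4) in the bikaverin pair, and 3 rose and 1 fell in the pRS416 pair. In the latter HIS1, for the first enzyme of the pathway, fell from 206.9 ± 6.88 to 109.4 ± 7.02 FPKM, while HIS2 rose from 21.6 ± 1.10 to 38.5 ± 4.98 FPKM, HIS4 from 92.8 ± 5.08 to 131.3 ± 11.9 FPKM and HIS5 from 105.6 ± 3.58 to 126.2 ± 2.98 FPKM. HIS4 fell in the bikaverin pair, from 240.3 ± 20.4 to 167.9 ± 56.1 FPKM, just under the threshold (limma adjusted p = 0.0499). Its groups overlapped, at 227.1 to 263.8 FPKM with low SAM and 128.2 to 232.1 FPKM with high SAM. The core Gcn4 site was in the windows of 5 of these 6 genes. GCN4 itself was not past the threshold in either pair, at 1903 ± 76.2 and 1805 ± 164 FPKM in the bikaverin strains and 1439 ± 127 and 1622 ± 101 FPKM in the pRS416 strains (limma adjusted p = 0.54 and 0.13). Gcn4 is regulated largely at translation, which RNA levels do not show.

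TRP1 (chromosome IV, 461842 to 462516, plus strand, 1 exon) was the marker whose groups overlapped in both pairs. In the bikaverin strains it was at 75.7, 78.9 and 76.8 FPKM with low SAM and at 80.7, 75.3 and 76.4 FPKM with high SAM. The 6 values lay within a narrow band, and the log2 change was 0.01 (95% interval -0.16 to 0.17, limma adjusted p = 0.95). In the pRS416 strains it was at 58.1, 49.6 and 44.5 FPKM with low SAM and at 45.4, 40.2 and 57.0 FPKM with high SAM. Both groups were more scattered there, and the log2 change of -0.10 had a 95% interval of -0.40 to 0.21 (adjusted p = 0.51). The difference between the pairs was 0.11 (95% interval -0.26 to 0.47, adjusted p = 0.61). In the bikaverin strains 0.991% of features had a smaller size of change than TRP1. A feature named YDR008C, next to TRP1 by its identifier, was listed in both tables but has no place in the RefSeq annotation, so whether it takes reads from TRP1 was not tested. It fell from 12.1 ± 5.18 to 5.40 ± 0.363 FPKM in the bikaverin pair (adjusted p = 0.013) and was at 1.84 ± 0.300 and 2.55 ± 0.570 FPKM in the pRS416 pair (adjusted p = 0.17).

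Of 8 other genes of the tryptophan and aromatic pathway 5 rose and 2 fell in the pRS416 pair, where 77.5% of all features were called, and 1 rose and 1 fell in the bikaverin pair. ARO1, for the pentafunctional enzyme of the shikimate pathway, rose from 35.6 ± 0.862 to 78.5 ± 9.76 FPKM and ARO2, for chorismate synthase, from 56.0 ± 0.388 to 87.9 ± 6.36 FPKM. TRP3 rose from 42.9 ± 1.94 to 64.5 ± 2.41 FPKM and TRP2, for anthranilate synthase, from 47.7 ± 4.04 to 79.9 ± 6.29 FPKM. In the bikaverin pair TRP2 rose from 105.5 ± 3.55 to 127.2 ± 13.3 FPKM and ARO3, a DAHP synthase gene, fell from 326.6 ± 32.0 to 171.0 ± 52.5 FPKM. The other 6 were not past the threshold there. TRP1 was among the lower genes of this set, at rank 7 to 8 of 9 in the bikaverin strains, 4 to 6 in the pRS416 low-SAM strain and 8 in the pRS416 high-SAM strain.

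**Figure D3:**
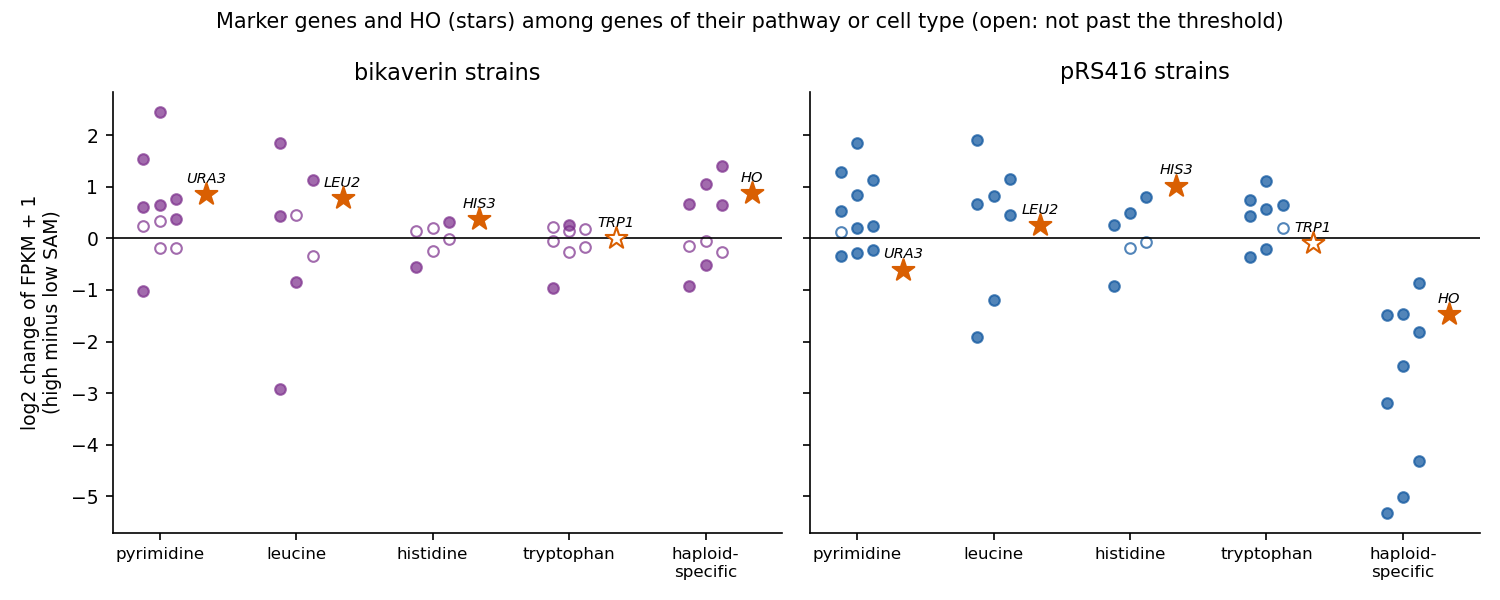
Log2 change of FPKM + 1 from low to high SAM for genes of the pathway or cell-type set of each locus (circles) with the locus itself (star), in the bikaverin strains (left) and the pRS416 strains (right); open symbols are not past the threshold. URA3 lies above 0 on the left and below 0 on the right while most pyrimidine genes are above 0 in both, and all 9 haploid-specific genes lie below 0 with HO on the right but on both sides of 0 on the left.

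HO (chromosome IV, 46271 to 48031, minus strand, 1 exon) had the lowest level of the 5 and the largest difference between the pairs. In the bikaverin strains it was at 9.22, 13.6 and 8.52 FPKM with low SAM and at 25.7, 20.1 and 14.4 FPKM with high SAM. The nearest libraries of the groups were close, 13.6 and 14.4 FPKM, without overlap. The mean went from 10.4 ± 2.73 to 20.1 ± 5.61 FPKM, 1.92-fold (log2 change 0.87, SE 0.233, limma adjusted p = 0.014). The call was lost without low-SAM replicate 1 or 3 (adjusted p = 0.052 and 0.054). These levels rest on 265 to 718 reads per library.

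In the pRS416 strains HO fell. It was at 6.02, 5.20 and 5.90 FPKM with low SAM and at 1.35, 1.48 and 1.44 FPKM with high SAM, which is 413 to 449 and 103 to 109 reads. The groups were far apart, with a coefficient of variation of 7.79% with low SAM and 4.75% with high SAM. At so few reads counting error is sizeable, so the closeness of the high-SAM values says little of precision. The mean went from 5.71 ± 0.444 to 1.42 ± 0.0674 FPKM, 4.02-fold lower (log2 change -1.47, SE 0.147, limma adjusted p = 1.4e-05, a scale that understates the change at such low levels). The difference of the change between the pairs was 2.34 (95% interval 1.74 to 2.94, adjusted p = 1.8e-05), larger in size than for 96.7% of features. As the RNA is from bulk cultures, fewer cells that transcribe HO and less HO RNA per cell cannot be told apart.

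HO is transcribed in haploid cells, so its level is given beside genes that mark haploids and each mating type. All 9 haploid-specific genes fell in the pRS416 pair, and their summed level was 947.8 to 990.0 FPKM with low SAM and 118.9 to 139.5 FPKM with high SAM. In the bikaverin pair 4 rose and 2 fell, with sums of 636 to 681 and 666 to 778 FPKM. FUS3, the mating MAP kinase gene, and FAR1, for the pheromone arrest factor, rose there from 58.9 ± 2.54 to 159.0 ± 36.1 FPKM and from 35.3 ± 4.95 to 74.8 ± 13.6 FPKM. RME1, for a repressor of meiosis, fell there from 223.0 ± 9.37 to 117.1 ± 16.1 FPKM. The 4 alpha-specific genes all rose in the bikaverin pair (sums 491 to 611 and 1136 to 2069 FPKM) and all fell in the pRS416 pair (966 to 1042 and 63.6 to 74.6 FPKM). Of 5 a-specific genes 0 rose and 1 fell in the bikaverin pair, and 1 rose and 3 fell in the pRS416 pair, with sums of 67.4 to 134 FPKM in all 4 strains. HO thus moved in the direction of the alpha-specific genes in each pair.

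HMRA1, listed for the a1 subunit of the repressor that shuts HO off, was at 0.124, 0 and 0 FPKM in the pRS416 low-SAM libraries and at 137.7, 132.6 and 81.7 FPKM in the high-SAM ones (limma adjusted p = 3.4e-09). In the bikaverin strains it was at 0.160, 0 and 0 FPKM with low SAM and at 1.16, 1.37 and 0.783 FPKM with high SAM, under the limit for a test. Within the pRS416 pair, the a1 RNA was thus high in the strain with the lower HO. In the bikaverin pair a1 RNA was far scarcer, with values near the floor, so its direction there is uncertain. Its values were also higher in the high-SAM strain, which there had the higher HO. An a1 transcript from MAT or from HMR cannot be told apart in these tables, and the part of a1, mating type or ploidy in the level of HO was not tested. MATALPHA2 had means of 1.63 and 1.05 FPKM in the bikaverin strains (limma adjusted p = 0.56) and of 0.220 and 0.161 FPKM in the pRS416 strains. MATALPHA1 was listed at 0 in the 3 bikaverin high-SAM libraries and has no listed value in the pRS416 strains. Both have copies at HML, so their low values are uncertain.

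**Figure D4:**
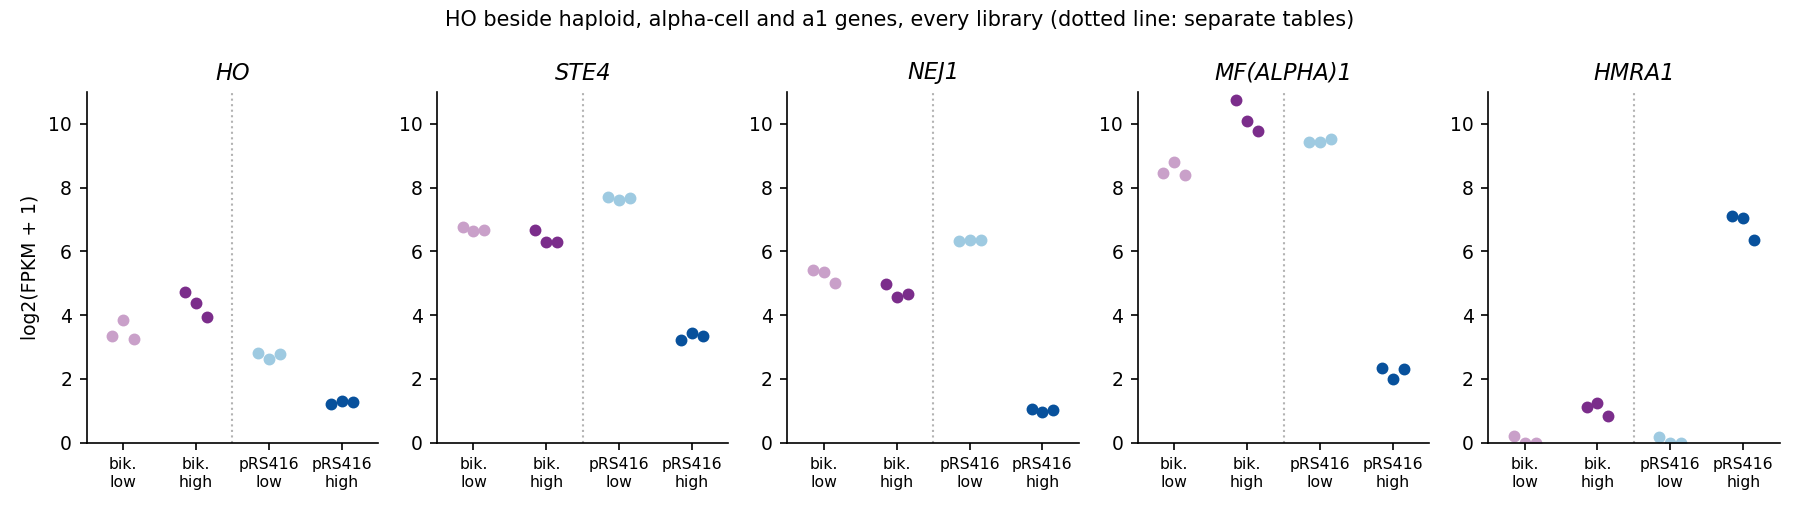
Level of HO, the haploid-specific genes STE4 and NEJ1, the alpha pheromone gene MF(ALPHA)1 and HMRA1 in each library, as log2(FPKM + 1); the dotted line divides the separately normalized tables. In the pRS416 strains HO, STE4, NEJ1 and MF(ALPHA)1 are lower and HMRA1 is higher in every high-SAM library than in every low-SAM library.

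Known regulators of HO moved both ways. Of 10 such genes 1 rose and 4 fell in the bikaverin pair, and 3 rose and 4 fell in the pRS416 pair. The SBF subunit genes rose in the pRS416 pair, where HO fell, SWI4 from 12.4 ± 0.757 to 23.8 ± 0.687 FPKM and SWI6 from 27.2 ± 1.53 to 37.0 ± 2.94 FPKM. In the bikaverin pair SWI4 was at 14.2 ± 3.05 and 12.1 ± 1.15 FPKM (adjusted p = 0.34) and SWI6 at 28.9 ± 2.27 and 30.6 ± 0.634 FPKM (adjusted p = 0.42). SWI5, for an activator of HO, was not past the threshold in either pair (limma adjusted p = 0.69 and 0.76). ASH1 fell in the pRS416 pair, from a mean of 119.9 to 79.2 FPKM (limma adjusted p = 0.00015). In the bikaverin pair its means were 114.4 and 93.0 FPKM (adjusted p = 0.13). GCN5 fell in both pairs, from means of 56.4 to 46.3 and of 51.0 to 37.5 FPKM. Genes of the SWI/SNF remodeller, SNF2 and SWI1, fell in the bikaverin pair to 0.722 and 0.694 of their low-SAM level while SWI3 rose 1.26-fold. SWI1 fell from 32.1 ± 2.51 to 16.5 ± 0.587 FPKM in the pRS416 pair. The deacetylase gene RPD3 fell in both, from 137.1 ± 9.28 to 102.1 ± 2.13 and from 102.9 ± 3.52 to 68.9 ± 3.56 FPKM, and SIN3 rose in the pRS416 pair from 32.1 ± 1.69 to 46.5 ± 3.08 FPKM.

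Most genes with a value that lie directly next to the 5 loci rose in both pairs. Of these adjacent genes SOK1 alone fell, in the pRS416 pair. Among all features, 28.8% and 39.1% were called higher and 27.9% and 38.4% lower, and the difference from these shares was not tested. Both neighbours of HIS3 rose in both pairs. DED1, an RNA helicase gene 302 bases downstream, went from 160.1 ± 6.03 to 395.9 ± 31.8 FPKM and from 54.0 ± 2.97 to 521.0 ± 144 FPKM, and MRM1, a mitochondrial rRNA methyltransferase gene on the other side, rose 1.33-fold and 1.47-fold. NFS1, the cysteine desulfurase gene 358 bases beyond LEU2, rose 1.97-fold and 2.56-fold. On the other side of LEU2, past a transfer RNA gene with no value here, the Ty element gene YCL019W, uncertain because such elements have many copies, had means of 6.40 and 5.02 FPKM in the bikaverin pair (limma adjusted p = 0.23) and fell from 5.88 to 2.97 FPKM in the pRS416 pair (adjusted p = 0.00074). GEA2, upstream of URA3, rose 1.31-fold and 1.53-fold, so in the pRS416 pair it moved against URA3, and TIM9 on the other side rose in the pRS416 pair (16.1 ± 3.43 to 21.5 ± 1.97 FPKM, limma adjusted p = 0.025), with 73.8 ± 5.43 and 69.4 ± 8.22 FPKM in the bikaverin strains (adjusted p = 0.49). GAL3, beyond TRP1, rose 1.69-fold and 1.55-fold, while SOK1 on its other side rose 1.17-fold in the bikaverin pair and fell 1.36-fold in the pRS416 pair. Beside HO, GCS1 rose 1.24-fold in the bikaverin pair and was at 43.0 ± 0.983 and 46.1 ± 1.45 FPKM in the pRS416 pair (adjusted p = 0.15). SSB1, a ribosome-associated chaperone gene on the other side, rose 2.45-fold and 3.65-fold. No gene of the RefSeq annotation overlapped any of the 5, and none of the 5 had another match in the R64 genome by BLAST+. Features outside that annotation, such as YDR008C and YOR203W (next to HIS3 by its identifier), have no position there. Their overlap with the loci was not tested.

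Across the 12 libraries, with each gene centred on its own mean within each table, the genes were compared with 6277 features. The measure was Pearson's r of log2(FPKM + 1), as a description. The libraries of a strain share its level and the centring removes the mean of each table. Such an r therefore reflects mainly the change with high SAM in each pair, and not its size. HO was most like PHO5 (r = 0.98), a phosphatase gene, RPL27B (0.97) and FAR1 (0.97), URA3 most like RPS10A, CRN1 and RPS15 (0.96 each), and LEU2 most like HRI1 (0.99), YER160C and URA5 (0.97 each). HIS3 was most like MRP4, a mitochondrial ribosomal protein gene, ASN2, an asparagine synthetase gene, and snR35 (0.98 each). For TRP1 the closest were LOT6, ORA1 and YNR048W, with r of 0.80, 0.76 and 0.75. Among the 5, the pair most alike was URA3 and HO (0.81), and HIS3 and HO ran opposite (-0.51). A high r can go with a much smaller change. RPS10A was called in neither pair (log2 change 0.24 and -0.18, limma adjusted p = 0.055 and 0.098). RPS10A and RPL27B have near-identical paralogs, so their own values are uncertain.

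Other genes used as markers in yeast moved both ways too. Of ADE1, ADE2, LYS2, MET17, CAN1, LYP1 and GAL80, 2 rose and 2 fell in the bikaverin pair, and 2 rose and 3 fell in the pRS416 pair, where 56.7% and 77.5% of all features were called. MET17, of sulfide fixation, had the largest change of the list, from 159.7 ± 18.8 to 922.4 ± 201 FPKM (5.78-fold) in the bikaverin pair, and rose 1.40-fold in the pRS416 pair. ADE1 and ADE2, of purine synthesis, fell in both, ADE2 from 165.9 ± 39.2 to 114.2 ± 15.99 FPKM and from 172.3 ± 0.319 to 99.3 ± 13.9 FPKM. LYS2, of lysine synthesis, rose from 28.1 ± 0.928 to 62.9 ± 7.86 FPKM in the pRS416 pair, where the arginine permease gene CAN1 fell from 147.0 ± 5.88 to 77.2 ± 3.27 FPKM.

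Depth differed between the tables. From the steps between values, a bikaverin library held 15.4 to 17.7 M reads and a pRS416 library 40.7 to 45.1 M. Replicates of a strain correlated at r of 0.979 to 0.996 across features. Each of the 5 genes had at least 103 reads in each library, and HO in the pRS416 high-SAM strain had the fewest (103 to 109), so counting error weighs most there.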

How the data were processed

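RNA-seq of 12 libraries (4 strains, 3 libraries each) was used. The authors deposited FPKM values in a bikaverin and a pRS416 table. Per the submitters' processing notes, build R64 was used, with HISAT2 2.0.5, fastp and featureCounts 1.5.0-p3. Strand setting, annotation and read filters are not given in the sources, so antisense reads cannot be told apart. Columns were joined to samples by library name and title, because another label field gives other numbers. The tables list 6845 and 6818 features, of which 6765 are in both after 705 identifiers in each were restyled, and 86.8% and 87.0% matched RefSeq R64. By exonic length, 97.3% to 98.8% of values lay within 0.02 of a whole read, which gave the read numbers. As the unit is FPKM, no count test was run.

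Each pair was fitted within its table with limma 3.58.1 (R 4.3.3, intensity trend) on log2(FPKM + 1), keeping features whose mean reached 1 FPKM, with Benjamini-Hochberg adjustment over all of them and calls below 0.05. The difference between the pairs was the bikaverin change less the pRS416 change, in 1 fit of 12 libraries. Folds are ratios of mean FPKM. The fits were first tested on simulated data. Pathway genes named are the up to 4 of smallest p per list and pair, plus regulators and counterparts chosen after their values were seen. Like genes are the 3 of highest r. Motifs were searched with Python 3.11.15 and copies with BLAST+ 2.17.0. The 5 genes and the lists were chosen with earlier results of these data known. The alternatives were a pseudocount of 0.1, no filter, a filter at 5 FPKM, quantile normalization, median-of-ratios scaling, no trend, a replicate block and leaving out each library.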

Additional observations from a re-analysis of the deposited data

Results flagged for a closer look

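The change with high SAM differed between the bikaverin and the pRS416 strains for 4 of the 5 genes, by the test of the difference itself in the limma fit of all 12 libraries (adjusted p below 0.05, as for 56.9% of all features). The log2 difference, bikaverin change minus pRS416 change, was 2.34 for HO and 1.46 for URA3, where the changes had opposite signs. It was 0.51 for LEU2 and -0.65 for HIS3, where both changes were rises. The 2 pairs were sequenced to different depth and normalized in separate tables, and the part of this in the differences was not tested.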

How the results depend on the processing

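Of 18 results (5 genes in each pair and for the difference, and 3 counts of called features), 18 kept direction and side of the threshold with a pseudocount of 0.1 and with no filter on low values, and 17 of 17 with a filter at 5 FPKM, under which HO was not tested in the pRS416 pair. The rise of HIS3 in the bikaverin pair was no longer called with no intensity trend (0.37, adjusted p = 0.054) or with a replicate block (0.37, adjusted p = 0.053), nor was the LEU2 difference with no trend (0.51, adjusted p = 0.052), nor the rise of LEU2 in the pRS416 pair with quantile normalization (0.10, adjusted p = 0.28). The log2 change of TRP1 in the bikaverin pair, 0.01, became -0.0086 with quantile normalization and -0.0018 with median-of-ratios size factors. The cause was not tested. With 1 library left out at a time, the log2 changes ranged from 0.23 to 0.47 (HIS3) and 0.68 to 1.08 (HO) in the bikaverin pair and from -0.79 to -0.35 (URA3) in the pRS416 pair, and the LEU2 difference from 0.37 to 0.65. TRP1 changed sign, with ranges of -0.023 to 0.025, -0.24 to 0.012 and, for the difference, -0.0064 to 0.24. Such fits have fewer samples. Samples with the same replicate number did not deviate together (r of -0.14 to 0.12), so the numbers were not taken to pair samples. The replicate block gave 3506, 4815 and 3453 called features instead of 3662, 4918 and 3647, and changed no other call of the 5 genes. Tables of 3 libraries per strain limit the precision, and HO at 103 to 109 reads is limited by counting too.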

Other observations

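One feature near LEU2 was chosen after its values were seen. YCL021W-A, at 83620 to 83997 on chromosome III of R64, had no read in any high-SAM library of either pair. With low SAM it was at 18.3 ± 3.64 FPKM in the bikaverin strain and 10.5 ± 0.783 FPKM in the pRS416 strain (SD, n = 3), so it was at least 111-fold and at least 168-fold lower with high SAM, set against 3 reads over the group, which covers counting error only. LEU2 itself had 8994 reads or more in each high-SAM library.

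Features within 10 kb of the 5 loci moved both ways, in tables where 28.8% of all features rose and 27.9% fell (bikaverin) and 39.1% rose and 38.4% fell (pRS416). In the bikaverin pair 4 of 11 rose and 3 fell around URA3, 1 and 2 of 8 around LEU2, 6 and 1 of 10 around HIS3, 4 and 1 of 11 around TRP1, and 6 and 2 of 10 around HO. In the pRS416 pair the counts of risen and fallen features were 7 and 2, 5 and 3, 9 and 1, 5 and 4, and 6 and 3 in the same order. Their difference from the shares of all features was not tested.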
